A study of Mus musculus with 4 samples.

Results

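The genes described here are 9 genes of myelin and of the oligodendrocyte, *Mbp*, *Mog*, *Mag*, *Mobp*, *Cnp*, *Mal*, *Opalin*, *Cldn11* and *Myrf*. They were chosen by name, and every row of the deposited peak tables that carries one of these names was used. They are 9 of the 13554 gene names with an m6A peak in at least 1 of the 2 groups. Spinal cords came from mice of the strain C57BL/6J, 6 to 8 weeks old, 7 days after sham surgery or after the sciatic nerve had been loosely tied (chronic constriction injury, CCI). Both groups had an m6A antibody library (IP) and an input library, 1 of each per group and 4 in all, and the number of mice behind a library is not given in the sources used here. With 1 library of each kind per group there were no replicates, so no difference between CCI and sham computed here has a test, an error or a p-value, and the values describe these libraries. The authors' own comparison in the differential table was used only for the place and name of its rows.

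Myelin is the membrane that oligodendrocytes wrap around axons of the central nervous system, and its compact layers are held together by a small set of abundant proteins. Many of the mRNAs for these proteins are made in large amounts, and *Mbp* mRNA is carried out to the sheath and translated there. N6-methyladenosine (m6A) is a methyl mark on adenosines of mRNA that is placed by a methyltransferase complex, often near stop codons, and is bound by reader proteins that act on splicing, translation and decay.

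Each peak has a fold enrichment, the authors' ratio of IP over input reads at that place. A fold enrichment is a property of a site relative to the input, so it does not measure how much of the mRNA was present. In bulk spinal cord, fewer oligodendrocytes and less RNA per oligodendrocyte cannot be told apart.

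All 9 genes had at least 1 peak in sham spinal cord, and 8 of the 9 had at least 1 in CCI spinal cord. Of the 13554 gene names with a peak in either group, 12907 had one in sham and 12408 in CCI, so most genes did. The 9 genes held 40 of the 34406 sham peaks and 36 of the 33556 CCI peaks. The exception was *Cldn11*, which codes for the tight junction claudin of central myelin and had 1 peak in sham and none in CCI. *Mobp* and *Myrf* had the most peaks, with 11 and 9 in sham and 10 and 7 in CCI. *Mbp* had 5 in sham and 6 in CCI, *Mag* 5 and 4, *Cnp* 4 and 4, *Mal* 2 and 2, *Opalin* 2 and 2, and *Mog* 1 and 1. The 9 genes thus carried 4.44 peaks per gene with a peak in sham and 4.5 in CCI, where all genes carried 2.67 and 2.7.

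**Figure D1:**
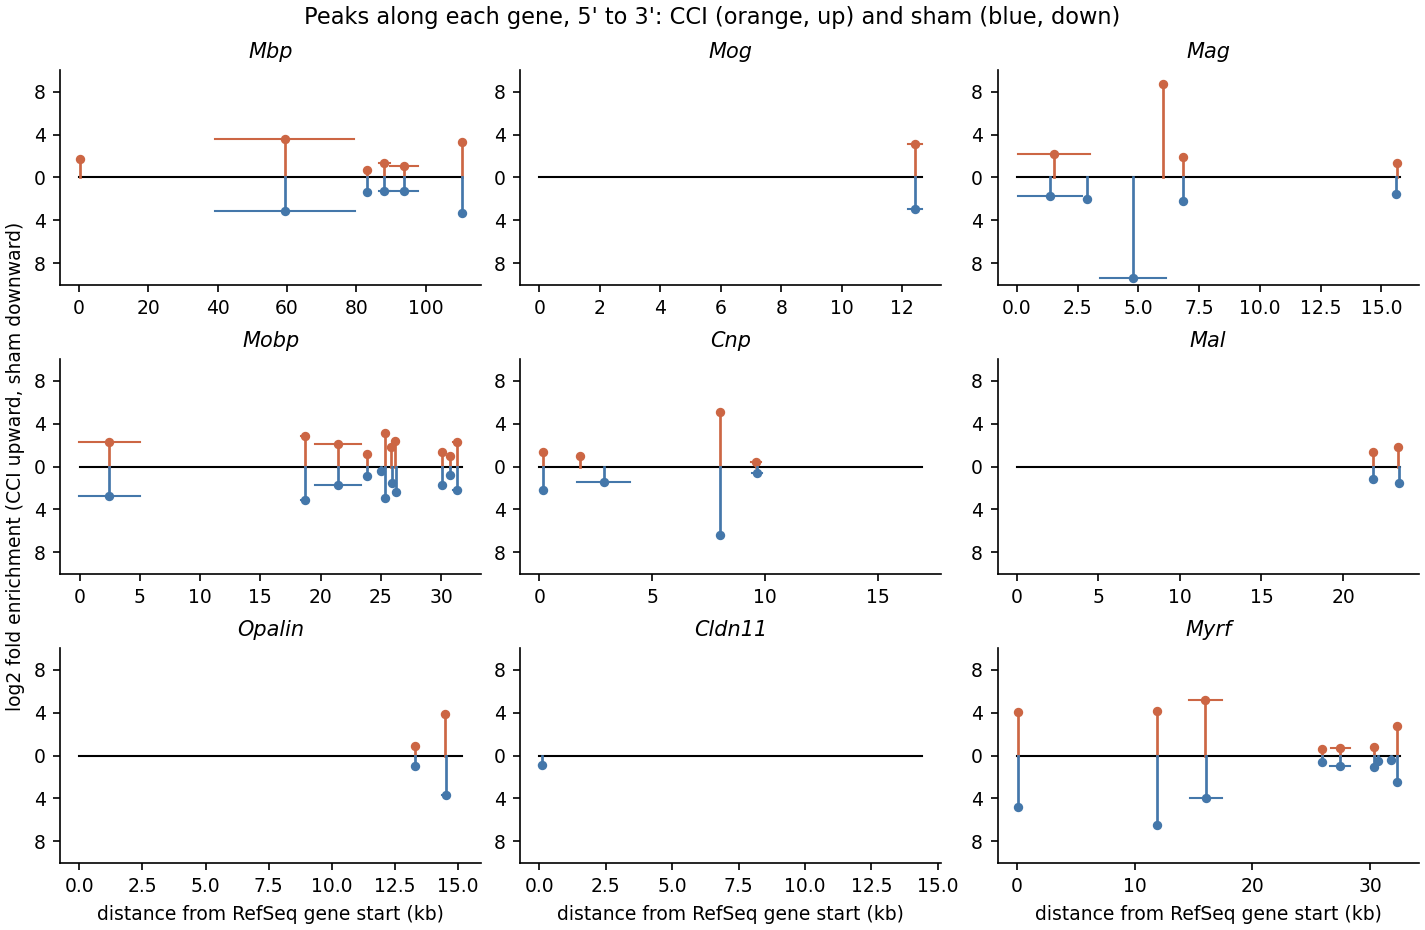
Peaks along each gene from the RefSeq gene start in kb, with log2 fold enrichment upward for CCI (orange) and downward for sham (blue); horizontal bars give the genomic span of a peak, introns included, and a stem stands at its middle. The picture shows nearly the same sites in both groups, the tall *Mag* site, and the single *Cldn11* peak in sham only.

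Several peaks began at the start of the transcript. The first transcribed bases of the 4 genes with a RefSeq start inside such a peak are shown because these peaks reach the 5′ end of the mRNA. They come from RefSeq (GRCm38.p6), and capitals mark each match, on the transcribed strand only, to the m6A consensus (A, G or T, then A or G, then AC, then A, C or T) or to the letters GGAC, which a consensus match can contain.
*Cnp*, chr11:100574950-100574979, plus strand, bases 12 to 41 of the transcript: gGGACCctgcgtgggggggccccGGACAcc
*Mobp*, chr9:120149762-120149791, plus strand, bases 21 to 50: tccacagGAACCtttcacaacagccattac
*Cldn11*, chr3:31149920-31149949, plus strand, bases 1 to 30: gagggggcggGGACgcgctgcccagcagcg
*Mag*, chr7:30914834-30914863, minus strand, bases 1 to 30: aagcccggccagccgagcagaaggtgcaga
*Cnp* held 2 consensus matches in its first 50 transcribed bases, both inside its 5′-UTR peak in both groups. *Mobp* held 1, and *Cldn11* held GGAC in a form that is not a consensus match. The *Mag* start shown held neither, although 45 of its first 50 bases lay inside a peak in both groups. RefSeq gives *Mag* other starts as well. The start at chr7:30914922 held 1 consensus match, but only 1 of its first 50 bases lay inside a peak in either group. The start at chr7:30914321 held neither, with all 50 bases inside a peak in both groups. Over the 32851 RefSeq windows of the same length, 54.4% held a consensus match and 18.9% held GGAC, so a match in a window this short is common. A match describes the letters and is not evidence of a methylated base. 7 of the 9 genes had an entry in that RefSeq table, the others being *Mbp* and *Myrf*.

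The position of the marks along the mRNA was much like that of all peaks. In CCI, 19 of the 36 peaks of these genes lay in the 3′-UTR (52.8%, 95% Wilson interval 37 to 68), 11 in exons (30.6%, 18 to 46.9) and 6 in the 5′-UTR (16.7%, 7.87 to 31.9). In sham, 23 of 40 lay in the 3′-UTR (57.5%, 42.2 to 71.5), 10 in exons (25%, 14.2 to 40.2) and 7 in the 5′-UTR (17.5%, 8.75 to 31.9). Over all peaks the shares were 49.8%, 35.5% and 14.7% in CCI and 48.9%, 35.1% and 16.1% in sham, each inside the interval of these genes. The intervals cover counting error only, and peaks of 1 gene are not independent.

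The peaks of the myelin genes had a lower fold enrichment and a lower false discovery rate than the median of all peaks. Their median fold enrichment was 3.7 in CCI and 3.21 in sham, against 5.72 and 5.7 over all peaks. 8 of 36 CCI peaks (22.2%) and 10 of 40 sham peaks (25%) had a fold enrichment under 2, against 8.65% and 9.45% of all peaks. At the same time the median log10 false discovery rate of IP against input was -84.8 in CCI and -76.9 in sham, against -15.3 and -16.8 over all peaks. The deposited value was minus infinity for 10 of the 36 and 12 of the 40 peaks (27.8% and 30%), against 4.3% and 5.68% of all peaks. Marker genes of neurons and astrocytes had the same pattern, and those of microglia had much less of it. The median fold enrichment of neuron genes was 3.01 in CCI and 3.08 in sham, with a median log10 false discovery rate of -48.1 and -57.7. That of astrocyte genes was 4.21 and 3.68, with -103 and -101. Peripheral myelin genes stood at 2.87 and 3.92, with -23.9 and -51.6. The 46 further genes of the oligodendrocyte lineage, described below, stood at 4.95 in CCI and 4.88 in sham, with -37.4 and -56.3. Their enrichment was thus nearer to all peaks than that of the myelin genes. Microglia genes stood at 5.21 in CCI and 4.17 in sham, with -17.7 and -25.1, nearer to all peaks in detection. The files hold no read counts, so the part of read depth at these mRNAs was not tested.

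35 peaks of the myelin genes could be paired between the groups, each being the other's best partner by shared exonic bases. Of the 35 pairs, 17 had a higher fold enrichment in CCI, 17 a lower one and 1 the same value. The median log2 ratio of fold enrichment, CCI over sham, was 0.00 (interquartile range -0.30 to 0.20), beside 0.03 (-0.37 to 0.43) over all 27380 pairs. A log2 ratio of at least 0.5 was found at 2 of the 35 pairs (5.71%), where 22.1% of all pairs reached it, and one of -0.5 or less at 7 (20%), where 19.4% of all pairs did. The order of the sites by fold enrichment was alike in both groups, with a Spearman correlation of 0.957 over the 35 pairs and 0.846 over all pairs. The pairs share input libraries, genes and in part the same borders (13 of 35 pairs had identical ones), and the correlation is a description only.

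**Figure D2:**
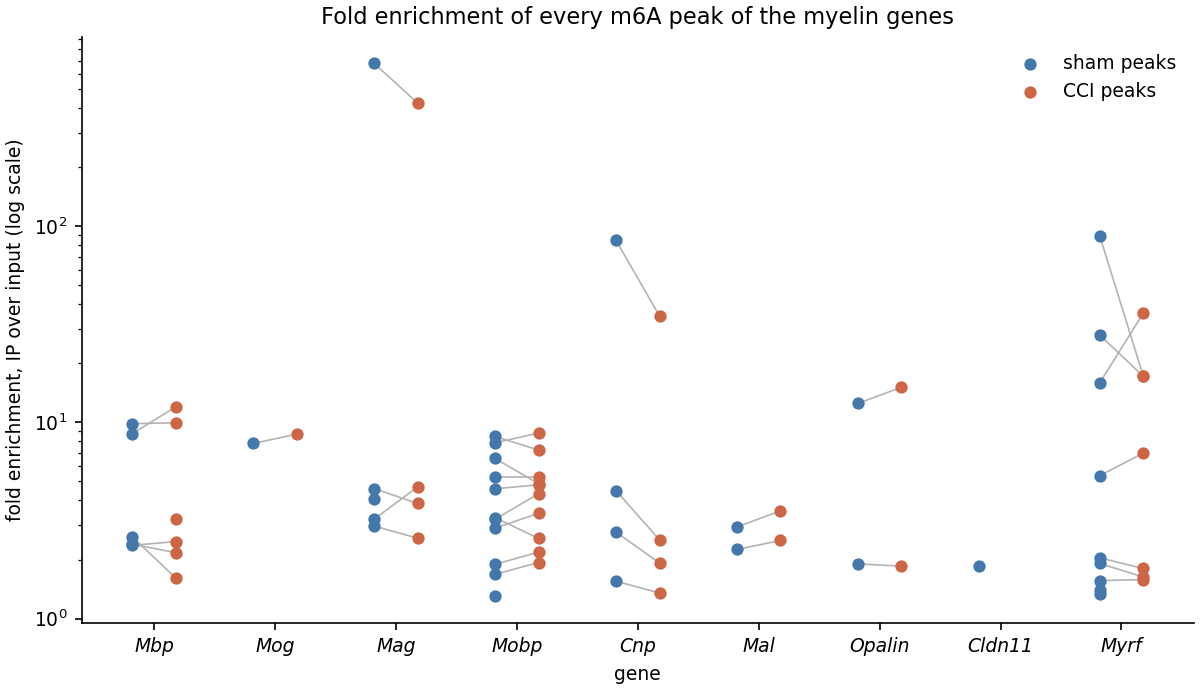
Fold enrichment of IP over input (log axis) for every peak of the 9 genes, sham in blue and CCI in orange, with lines joining paired peaks. The steepest lines are those of *Myrf* from 89.5 to 17.3, *Cnp* from 84.8 to 34.9 and *Myrf* from 15.9 to 36, and 26 of the 35 pairs differ by less than 0.5 on the log2 scale.

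The mRNAs for proteins of compact myelin had small differences in fold enrichment at their most enriched sites. *Mbp*, which codes for the basic protein that joins the cytoplasmic faces of the membrane, had its most enriched pair in the peak annotated to the 5′-UTR, at chr18:82514332-82554578 in CCI, where enrichment was 8.77-fold in sham and 12-fold in CCI (log2 ratio 0.45). Its 3′-UTR peak at the end of the gene, chr18:82585487-82585637, had the same borders in both groups and stood at 9.85 in sham and 9.96 in CCI (0.02). These strong *Mbp* sites therefore differed by at most 1.37 times between the libraries.

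The remaining *Mbp* pairs were low. An exonic pair stood at 2.36 in sham and 2.47 in CCI (0.07) and another at 2.39 and 2.17 (-0.14). A short peak annotated to a 3′-UTR inside the gene stood at 2.61 in sham and 1.61 in CCI (-0.70). It had 151 exonic bases in sham and 61 in CCI. Its log10 false discovery rate was -16.7 in sham and -2.64 in CCI, so its detection in CCI was weak. *Mbp* also had a peak in CCI only, at chr18:82475206-82475355 near the first start of the gene, with a fold enrichment of 3.21 and a log10 false discovery rate of -4.22, far weaker in detection than the shared *Mbp* peaks of highest enrichment, which are listed at minus infinity. The RefSeq gene Gm52337 overlaps the 3 low pairs of *Mbp*, and reads of the genes cannot be told apart there in these tables.

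*Mobp*, a small basic protein of compact myelin, gave the longest run of sites. 9 of its 10 pairs lay in the 3′-UTR, and the log2 ratios ran from -0.43 to 0.43, with 6 above 0, 3 below and 1 at 0. The highest fold enrichments in sham were 8.48, 7.87 and 6.55, and the CCI values of the same sites were 7.23, 8.83 and 4.87. The last of these is the 5′-UTR peak whose first bases are shown above, with 6.55 in sham and 4.87 in CCI (-0.43). The other 3′-UTR pairs were lower in enrichment. From the 5′ side they stood at 3.21 in sham and 4.33 in CCI (0.43), 1.89 and 2.18 (0.21), 2.89 and 3.44 (0.25), 5.29 and 5.29 (0.00), 3.27 and 2.56 (-0.35), 1.68 and 1.93 (0.20), and 4.59 and 4.81 (0.07). None of the 10 *Mobp* pairs reached a log2 ratio of 0.5 in either direction. The peaks of *Mobp* covered 2823 exonic bases in sham and 2852 in CCI, of which 2732 were shared. A weak peak was listed in sham only, with a fold enrichment of 1.3.

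*Mog*, *Mal* and *Opalin* also had nearly the same values in both groups. *Mog*, a protein of the outermost surface of the sheath, had 1 peak of 479 bases in the 3′-UTR with the same borders in both groups (chr17:37010743-37011221), at 7.81 in sham and 8.71 in CCI (0.16). *Mal*, a proteolipid of membrane traffic, had 2 pairs in the 3′-UTR, at 2.93 in sham and 3.54 in CCI (0.27, with 31 bases shared) and at 2.25 and 2.5 (0.15). *Opalin*, a transmembrane glycoprotein of oligodendrocytes, had a 3′-UTR pair (chr19:41062504-41062741 in CCI) at 12.5 in sham and 15.1 in CCI (0.27) and a low pair at 1.9 and 1.85 (-0.04). The strongest pair of each of these 3 genes was thus slightly higher in CCI, by 1.12 to 1.21 times.

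*Mag* codes for the adhesion protein of the membrane that faces the axon, and held by far the most enriched site of the 9 genes. At an exonic site that begins at chr7:30908767, enrichment reached 677-fold in sham and 425-fold in CCI (log2 ratio -0.67), which ranked 17 from the top among all sham peaks and 42 among all CCI peaks. The borders differed, with 600 exonic bases in 2 blocks in sham and 241 bases in 1 block in CCI, and only 40.2% of the joint bases were shared, so the values do not cover the same stretch. The other exonic pair stood at 4.6 in sham and 3.86 in CCI (-0.25), and the 3′-UTR pair at 2.96 and 2.57 (-0.20). At the 5′ end, CCI had 1 peak of 510 bases with a fold enrichment of 4.69, where sham had 2 separate peaks at 3.21 and 4.07. The log2 ratio of 0.55 at this site is that of the CCI peak over the sham peak at 3.21, and it also rests on unequal borders.

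*Cnp*, a phosphodiesterase of non-compact myelin, was the one gene with several pairs in which every pair was lower in CCI. Its 5′-UTR peak stood at 4.49 in sham and 2.52 in CCI (-0.83), and its peak in exon 2 of 4 at 2.76 and 1.92 (-0.52). The peak with the highest enrichment, chr11:100582818-100583027 in CCI, stood at 84.8 in sham and 34.9 in CCI (-1.28), and a low peak at 1.55 and 1.35 (-0.20). 3 of the 4 pairs were at or below -0.5, and each of the other 8 genes had at most 2 such pairs.

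The 2 *Cnp* peaks with the last of these values lie over a neighbour. They fall inside the RefSeq span of *Dnajc7* (chr11:100582818-100620292, minus strand), a co-chaperone gene that runs toward *Cnp* on the opposite strand, and the first of them begins at the last base of *Dnajc7*. In the other direction, the row that covers the last 194 bases of the coding *Cnp* transcript (chr11:100581535-100581728) is named *Dnajc7* in both lists. Its values were 24.3 in sham and 19.9 in CCI (-0.29). That row also has a second block, chr11:100591267-100591371 in CCI, inside the RefSeq spans of both genes. The deposited annotation of the low peak names an exon of *Dnajc7*, although its row carries the name *Cnp*. The use of strand in peak calling is not given in the sources used here, so the source of these peaks cannot be told apart by strand. Without the 2 peaks over *Dnajc7*, the strongest *Cnp* pair is the 5′-UTR peak at -0.83, and all of its pairs are still lower in CCI.

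*Cldn11* had a single peak, at chr3:31149920-31150098 in the 5′-UTR of sham, which starts at the first base of the gene. Its fold enrichment was 1.85 with a log10 false discovery rate of -32.6, and 7.03% of sham peaks were no higher in fold enrichment. No CCI row carries the name or overlaps this site. With so low an enrichment, the missing row in CCI says that no peak passed the authors' calling there, not that the mark was absent.

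*Myrf*, the transcription factor that turns on myelin genes in the maturing oligodendrocyte, had the widest spread. In exon 2 of 27 (chr19:10228715-10229028 in CCI) enrichment was 89.5-fold in sham and 17.3-fold in CCI (log2 ratio -2.37), a ratio lower than that of all but 0.734% of all pairs. In the stretch annotated to exon 4 (chr19:10223344-10226171 in CCI) it was 15.9 in sham and 36 in CCI (1.18). In the 5′-UTR (chr19:10240628-10240748 in both groups) it was 27.9 in sham and 17.2 in CCI (-0.70). This pair was the most weakly detected of the *Myrf* pairs, with a log10 false discovery rate of -6.06 in sham and -4.1 in CCI. Neighbouring sites of the same mRNA thus had opposite differences. The *Myrf* site in the 3′-UTR with the highest enrichment stood at 5.35 in sham and 6.97 in CCI (0.38), and the other 3 pairs, all with fold enrichments from 1.56 to 2.04, had log2 ratios from -0.23 to 0.02. 2 further 3′-UTR peaks, at 1.34 and 1.39, were listed in sham only.

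**Figure D3:**
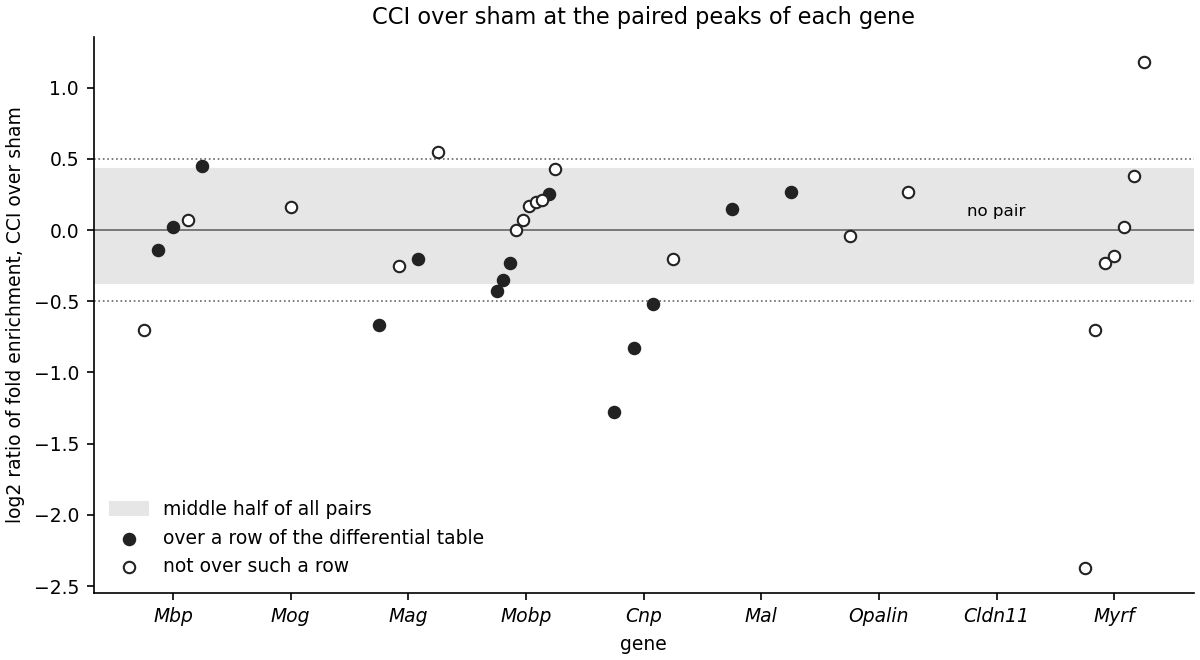
Log2 ratio of fold enrichment, CCI over sham, at each of the 35 paired peaks by gene; filled points overlap a row of the differential table, the grey band is the interquartile range of all pairs (-0.37 to 0.43) and dotted lines mark 0.5 and -0.5. All *Mobp*, *Mog*, *Mal* and *Opalin* points lie between the dotted lines, all *Cnp* points lie below 0, and *Myrf* spans -2.37 to 1.18 with no filled point.

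9 of the 35 pairs were past 0.5 in size, and they lay at both high and low enrichment. 5 pairs of the myelin genes had a mean fold enrichment (geometric mean of both groups) of at least 16, a limit set after the values were seen, and all 5 had a log2 ratio past 0.5 in size, 4 of them lower in CCI. These are the exonic *Mag* site, the *Cnp* site over *Dnajc7* and the 3 *Myrf* sites in exon 2, exon 4 and the 5′-UTR. The *Myrf* site in the 5′-UTR was weakly detected. Of the 30 pairs below that limit, 4 were past 0.5 in size (13.3%), namely the *Cnp* pairs in the 5′-UTR (-0.83) and exon 2 (-0.52), the short *Mbp* pair (-0.70) and the 5′ *Mag* pair (0.55). The short *Mbp* pair was weakly detected in CCI. Over all pairs the shares were 56.9% of 4987 above the limit and 38.1% of 22393 below it. Ratios were thus more spread at highly enriched sites in general.

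The differential table, in which the authors listed 4812 sites that differ between CCI and sham, held 15 rows for these genes. 6 of the 9 genes had a row (66.7%), beside 25.3% of all genes with a peak. Such a share was not particular to them. Among marker genes with a peak it was 71.4% for astrocyte, 66.7% for neuron, 57.1% for peripheral myelin and 28.6% for microglia genes. The rows fell to *Mobp* (4), *Cnp* (3), *Mbp* (3), *Mag* (2), *Mal* (2) and *Cldn11* (1), and none carried the name of *Mog*, *Opalin* or *Myrf*. Counted by peak, 15 of the 40 sham peaks (37.5%) and 14 of the 36 CCI peaks (38.9%) overlapped a row, beside 14.3% of all sham peaks and 15.6% of all CCI peaks.

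Rows of the differential table and large ratios were often not at the same sites. Of the 14 pairs over such a row, 9 were lower in CCI and 5 higher, and the size of their log2 ratio ran from 0.02 to 1.28 with a median of 0.31. 4 of the 14 were past 0.5 in size (28.6%), where 55.4% of the 4328 such pairs in all genes were. The *Mbp* 3′-UTR site had a row at a ratio of 0.02, and the *Myrf* site in exon 2 had none at -2.37. The *Mbp* site is listed at minus infinity for the log10 false discovery rate in both groups, and the *Myrf* site at -24.5 in sham and -23.1 in CCI. 10 pairs of the myelin genes were at minus infinity in both groups, and 7 of the 10 overlapped a row (70%), as did 7 of the other 25 (28%). Over all genes, 52.9% of the 1340 pairs at minus infinity and 13.9% of the rest overlapped a row, so the rows went with strength of detection over all genes too. The part of read depth in these rows was not tested.

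46 further genes of the oligodendrocyte lineage were read in the same way. 42 had a peak in CCI and 41 in sham. Of the 43 with a peak in either group, 24 had a row in the differential table (55.8%). *Enpp2*, the secreted lysophospholipase autotaxin, *Tspan2*, a tetraspanin, and *Gsn*, the actin-severing protein gelsolin, had no row in either peak list. At the strongest pair of each of the 39 genes with one, 20 were lower and 19 higher in CCI, with a median log2 ratio of -0.10. The same median was 0.16 over the 8 myelin genes with a pair and 0.01 over all 11543 genes with a pair. 12 lineage genes were at or below -0.5 (30.8%) and 7 at or above 0.5 (17.9%), beside 23.7% and 25% of all genes, and of the 8 myelin genes 3 and 0 were.

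Among the lineage genes, the lowest ratios were those of *Lpar1*, a lysophosphatidic acid receptor, *Omg*, the oligodendrocyte myelin glycoprotein, and *Gal3st1*, the sulfotransferase of sulfatide synthesis. The 3′-UTR site of *Lpar1* stood at 102 in sham and 18.9 in CCI (-2.43). *Omg* stood at 65.1 in sham and 17.9 in CCI (-1.86), at a site that lies inside the span of the RefSeq gene *Nf1*, and *Gal3st1* at 31.4 and 9.9 (-1.67). The highest ratios belonged to *Pdgfra*, the growth factor receptor of oligodendrocyte progenitors, with 11.2 in sham and 35.4 in CCI (1.66), to *Enpp6*, a choline phosphodiesterase of newly formed oligodendrocytes, with 1.98 and 5.16 (1.38), and to *Gpr37*, a receptor of maturing oligodendrocytes, with 23.8 and 43.5 (0.87). The *Enpp6* ratio rests on a low sham value and on unequal borders, with 91 exonic bases in sham and 181 in CCI. The myelin genes at their strongest pairs lay between -2.37 (*Myrf*) and 0.45 (*Mbp*).

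**Figure D4:**
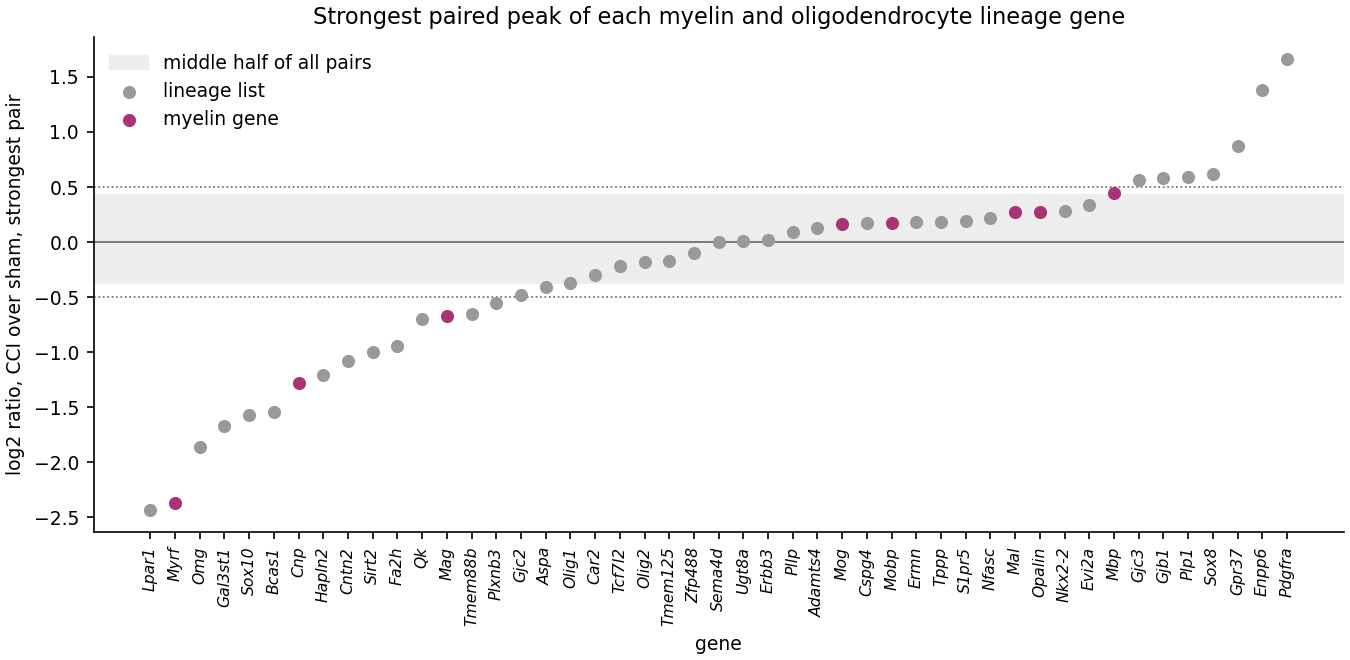
Log2 ratio of fold enrichment, CCI over sham, at the strongest pair of each of 8 myelin genes (magenta) and 39 oligodendrocyte lineage genes (grey), ordered by value, with the interquartile range of all pairs as a grey band. *Myrf*, *Cnp* and *Mag* lie below -0.5 and the other 5 myelin genes lie between 0.16 and 0.45.

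Genes that mark other cells of the cord, and genes of peripheral myelin, were also present in the lists, as in a sample of bulk tissue. Peaks were listed by name in both groups for 7 of 7 astrocyte, 7 of 7 microglia, 6 of 7 neuron and 7 of 8 peripheral myelin genes. The neuron gene without a peak of its name had 3 rows over its RefSeq span in each group, named otherwise. Of the genes with a peak of their name, 5, 2, 4 and 4 had a row in the differential table (71.4%, 28.6%, 66.7% and 57.1%). The median log2 ratio over all their pairs was 0.04 for astrocyte, 0.18 for microglia, -0.16 for neuron and -0.10 for peripheral myelin genes, beside 0.00 for the myelin genes. Their part in the values of the myelin genes was not tested.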

How the data were processed

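MeRIP-seq was made from poly(A) RNA of mouse spinal cord with an m6A antibody, and 3 deposited tables were used, the CCI peaks, the sham peaks and the differential peaks. The authors deposited the fold enrichment as a ratio of IP to input at each peak. The deposited log10 false discovery rate of each peak, the authors' test of IP against input, was handled as a score, since some values are minus infinity. The submitters' processing notes name fastp, HISAT2, HOMER, ChIPseeker and the build GRCm38, whereas the methods of the study name Cutadapt, bowtie, MACS2 and ChIPseeker, and the columns carry the names of exomePeak output. These versions are not given in the sources used here. The authors' own comparison of CCI with sham (a log2 fold change with its p-value and false discovery rate) was not used; only the place and name of each differential row were.

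Rows were taken by gene name and compared by exonic blocks with Python 3.11.15, numpy 2.4.6 and pandas 2.3.3. Peaks of both lists were paired where each had its largest share of joint bases with the other, at a minimum of 1 base. The strongest pair of a gene is the one with the highest geometric mean of both fold enrichments. A log2 ratio of 0.5 in size was used as the limit for counts. The pairing was tested on simulated peaks that stood well apart, with at most a single partner each and similar borders. Split peaks and strongly unequal borders, such as those of *Mag*, were not part of that simulation. The files give no read counts, so the depth per library is unknown. Coordinates are those of the deposited tables, and names and spans of all 9 genes were matched in the RefSeq table of GRCm38.p6.

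The genes and lists were chosen with earlier results of these data known. All 9 genes are named with every peak; of the lineage list, genes without a peak and the 3 highest and 3 lowest ratios are named; other lists are given as counts. Alternatives covered the peak threshold, the overlap, the centring, the ratio limit, the unit and the *Cnp* peaks over *Dnajc7*, the last chosen after seeing the data.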

Additional observations from a re-analysis of the deposited data

How the results depend on the processing

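Of 52 alternative values, 45 stayed within 0.1 on the log2 scale, 1.5 times for a count, or the counting interval for a share, and none changed sign past the limit. With a log2 limit of 1 in place of 0.5, 2 pairs of the myelin genes were lower and 1 higher in CCI, in place of 7 and 2. With at least 50% of both peaks shared, 5 were lower and 1 higher, since the *Mag* pairs past the limit and the short *Mbp* pair drop out by construction. With the highest fold enrichment of each list in place of the strongest pair, the log2 ratio was -1.31 for *Myrf*, 0.28 for *Mbp* and 0.06 for *Mobp*. In each of these genes the highest sham and CCI values lie at different sites, so these ratios do not compare a single site. Without the *Cnp* peaks over *Dnajc7*, chosen after seeing the data, the *Cnp* ratio was -0.83 and 6 pairs were lower. No paired analysis was possible because there was only 1 IP and 1 input library for either group. The planned count of the m6A motif inside peaks was not run, since no genome sequence was used here. Fold enrichments of the groups were made against different inputs and borders, and depth is unknown.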
